A study of Homo sapiens with 9 samples.

Results

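Long intergenic noncoding RNAs (lincRNAs) are transcripts that lie between protein-coding genes and carry no long reading frame; those without a name for a function get a LINC symbol followed by a number. The members described here are the LINC-numbered genes whose mean value over all 9 libraries was at least 7. They number 149, out of 908 LINC-numbered genes and 22290 genes with values. They were chosen by their mean level over all libraries. LINC00665 was also selected on its low value in the libraries labelled as knockdown, so its difference in those libraries is given as a description with no test.

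RNA sequencing was done on a human neuroblastoma line labelled IMR-32 in 3 groups of 3 libraries. PAR is the parental line, and KD and OE are derivatives labelled as having TRAP-1 knocked down or overexpressed. TRAP-1 is a mitochondrial heat shock protein 90 chaperone. The derivatives were made in earlier work, and whether each is 1 clone is not given in the sources used here. The manipulation and any other difference between the lines therefore cannot be told apart. RNA was isolated in triplicate and nothing states that the triplicates were separate cultures; the p-values then measure only the spread between these libraries, which may be technical.

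Values are regularized log2 (rlog) values, which are scaled for library size and pulled toward each gene's mean, so that differences understate fold changes, more so at low levels. The study's methods state a read coverage but do not give it by library, and these values do not show it, so the depth of each library is unknown. The library kit selects polyadenylated RNA and keeps no strand, so transcripts without a poly(A) tail are missed, and reads from a lincRNA and from an overlapping gene on the other strand cannot be told apart. In bulk RNA, fewer cells with a transcript and less of it per cell cannot be told apart.

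TRAP1 was measured first, since it checks the labels. Its rlog value was 10.67, 10.66 and 10.65 in the PAR libraries, 10.79, 10.79 and 10.83 in the libraries labelled KD, and 10.67, 10.63 and 10.74 in the libraries labelled OE. TRAP1 was thus higher in the libraries labelled KD than in PAR by 0.14 (SE 0.0252, limma adjusted p = 1.8e-05), with all 3 above all 3 PAR libraries, which goes against that label at the level of RNA. The OE minus PAR difference was 0.02 (95% interval -0.03 to 0.07, limma adjusted p = 0.643), and the groups overlapped. The groups are therefore called the libraries labelled KD and the libraries labelled OE, and no direction below is read as an effect of less or more TRAP1.

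The labelled cell type was set beside its markers. IMR-32 is known as an adrenergic neuroblastoma line with an amplified MYCN gene. Of 18 adrenergic markers 12 had a value, the most abundant was ISL1 with a mean rlog of 9.29, and GATA2 followed at 9.20; MYCN was at 2.54, PHOX2A at 1.34 and TH, the first enzyme of catecholamine synthesis, at 2.73. The MYCN level goes against what is known of this line, and the median over all genes was 7.05. Of the 10 mesenchymal markers all had a value, led by VIM (vimentin) at 15.89 and CD44 at 14.63. Among markers of other types, the epithelial KRT18 was at 12.04 with EPCAM at 2.58, the fibroblast PDGFRB at 8.53 with COL1A1 at 4.18, and the leukocyte PTPRC at 2.65. The summed mesenchymal level was 16.93 in each PAR library, 17.02 in each library labelled KD and 17.08 to 17.10 in those labelled OE, while the summed adrenergic level was 10.75, 10.71 and 10.72 in PAR, 10.61, 10.59 and 10.62 in KD and 10.62, 10.71 and 10.67 in OE, so that all KD libraries lay below all PAR libraries. Of the 12 adrenergic markers, KD minus PAR called 2 higher and 6 lower, and OE minus PAR none higher and 2 lower. Of the mesenchymal markers, KD minus PAR called 5 higher and 4 lower, and OE minus PAR 7 higher and 3 lower. Over all genes the shares called higher and lower were 26.9% and 26.9% in KD and 16.9% and 18.0% in OE, and among genes with a mean of at least 7, as 9 of the 10 mesenchymal and 3 of the 12 adrenergic markers had, 36.5% and 38.6% in KD and 25.3% and 29.9% in OE. The largest rise in KD was that of PRRX1, a mesenchymal homeobox factor, at 11.70 in PAR, 12.99 in KD and 12.39 in OE. The largest falls in KD were those of FN1 (fibronectin), at 13.97, 13.01 and 14.52, and of FOSL1, an AP-1 subunit, at 13.77, 13.05 and 13.25. The summed level of the 13 epithelial markers with a value, led by KRT18, was 12.75, 12.76 and 12.74 in PAR, 12.80, 12.83 and 12.84 in KD and 12.61, 12.60 and 12.61 in OE, so that the 3 groups did not overlap. KD minus PAR called 2 of them higher and 3 lower, with the keratin KRT14 at -0.70, KRT8 at 0.39 and the desmosomal DSP at 0.37, and OE minus PAR called 1 higher, KRT8 at 0.40, and 4 lower, with the claudin CLDN4 at -0.57. The part of these markers in the lincRNA results was not tested.

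Most LINC-numbered genes were near the bottom of the scale. Their median mean rlog was 3.65, with 375 below 3, and 16.4% reached 7 against 50.3% of all genes. At the threshold, LINC01482, LINC00174 and LINC01772 were just inside, with PAR means of 6.41, 6.98 and 6.93, KD means of 8.06, 7.04 and 7.04 and OE means of 6.58, 7.0 and 7.04. Just outside were LINC02511, LINC03072 and LINC02462, with PAR means of 6.78, 6.90 and 6.79, KD means of 7.48, 7.11 and 7.27 and OE means of 6.73, 6.96 and 6.90. In 8 members, among them LINC01482, LINC02328, LINC00326 and LINC00174, the PAR and OE libraries alone had a mean below 7, so that they passed through their KD libraries; where a KD difference of these 8 is given it is a description with no test. In all, 9 members had a PAR mean below 7, 4 a KD mean below 7 and 6 an OE mean below 7, and 14 LINC-numbered genes left out had a group mean of 7 or more.

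**Figure D1:**
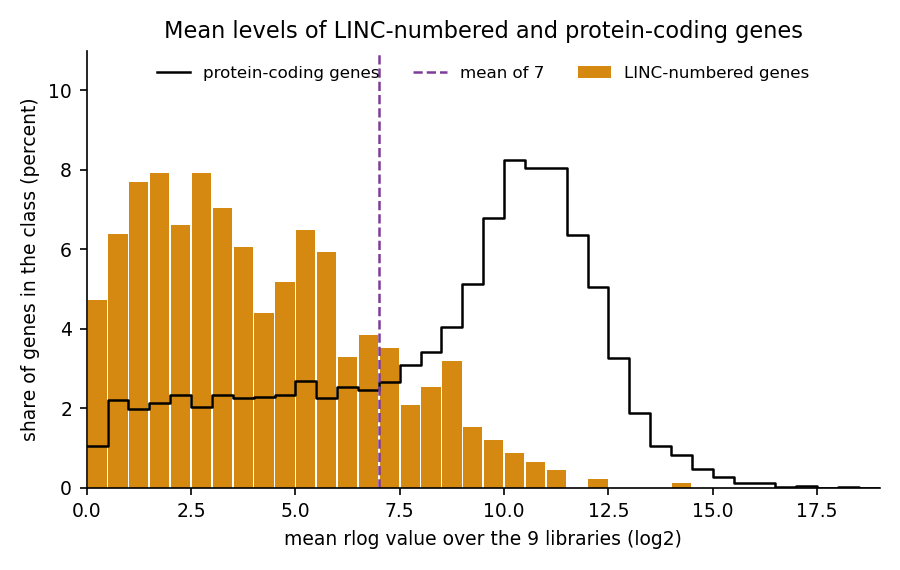
Share of LINC-numbered genes (bars, 908 genes) and of protein-coding genes (black line) in each step of 0.5 of the mean rlog value over the 9 libraries; the dashed line marks the mean of 7 that members had to reach. The bars lie mostly left of the line, with 149 genes at or right of it, while the protein-coding genes peak near 10 to 11.

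The gene models of the members, taken from GENCODE release 44 on GRCh38, had fewer exons and fewer exonic bases than those of coding genes. The canonical transcript had a median of 4 exons, 12 members had 1 exon, and the exonic length over all isoforms had a median of 4379 bases and ran from 143 to 33198. The 10151 protein-coding genes with a mean of at least 7 had a median of 10 exons and 5799 exonic bases. Per length, the members were lower: the mean rlog less the log2 of the exonic length in kb had a median of 6.52 in the members and 8.06 in those coding genes, whose median 31 members reached. The 149 genes lay on 22 chromosomes, with 18 on chromosome 1, 13 on chromosome 13 and 12 on chromosome 2. Of the members, 141 were of the type lncRNA and 7 were transcribed pseudogenes.

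The level scale has a clear head. LINC01029 on chromosome 18 (GRCh38 chr18:77970637-77993731) had an rlog value of 14.46, 14.46 and 14.48 in PAR, 14.12, 14.12 and 14.11 in KD and 14.40, 14.40 and 14.38 in OE. Its mean of 14.33 was the highest of the members, and it ranked 2 of 149 per length, at 12.17. LINC01203, LINC00511, LINC02367, LINC01687 and LINC01060 followed by rlog; per length they stood at 9.54, 7.48, 8.68, 9.57 and 8.74. LINC00511, described in carcinomas as a partner of the chromatin repressor EZH2, has 27664 exonic bases, and its place falls from 3 by rlog to 41 per length.

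Some members share exons with other genes, and their values are uncertain. More than 20% of the exonic bases were shared with another gene in 12 members, while 94 shared none. LINC01145, LINC01881 and LINC03006 lay wholly inside other models, and LINC01145, with 143 exonic bases, ranked 1 per length for that short model. LINC00888 shared 78.6% of its bases with a second model of the same name. None of these 4 differed by more than 0.10 in KD minus PAR.

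The first comparison asks how lincRNA levels in the KD-labelled libraries compare with those in PAR. Of the 149 members, 76 (51.0%) were called higher and 39 (26.2%) lower by limma at an adjusted p under 0.05, and 34 were not called. Over all 22290 genes, 26.9% were called higher and 26.9% lower; among the 11221 genes with a mean of at least 7, 36.5% were called higher and 38.6% lower. The median difference of the members was 0.084, against -0.0005 over all genes. All 3 KD libraries lay beyond all 3 PAR libraries in 121 members (81.2%), against 77.5% of the genes with a mean of at least 7. A called difference over 0.5 was found in 34 members (22.8%), 24 higher and 10 lower, against 7.33% of those genes. These counts describe a list chosen by level. LINC00665 is among the 39, and 7 of the 8 members that passed through their KD libraries are among the 76. With a difference over 0.5, LINC00665 is among the 10. LINC01482, LINC02328 and LINC00326, which are of those 8, are then among the 24. The count over 0.5 is not given without them, so the 22.8% is a description.

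**Figure D2:**
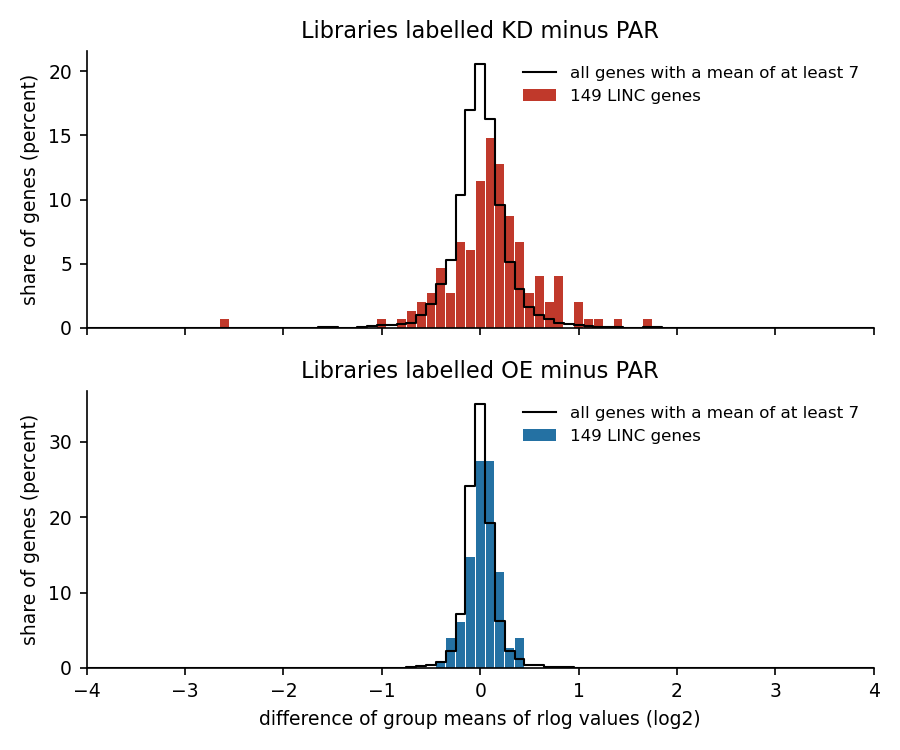
Share of genes in each step of 0.1 of the difference of group means (log2), for the 149 LINC genes (bars) and the 11221 genes with a mean of at least 7 (black line), with KD minus PAR above and OE minus PAR below; both use the same 3 PAR libraries. In KD minus PAR the bars reach from -2.57 to 1.65 and sit to the right of the line around 0, and in OE minus PAR they stay within -0.39 and 0.45.

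LINC00665 is a lincRNA of chromosome 19 that has been described as raised in several carcinomas, and a small peptide that binds the phosphatase inhibitor CIP2A has been reported to be made from it. The gene (ENSG00000232677, GRCh38 chr19:36259540-36331770, minus strand) has 4 exons in its canonical transcript and 12167 exonic bases over 35 isoforms. Its rlog value was 9.56, 9.57 and 9.58 in PAR, 7.06, 6.99 and 6.96 in KD and 9.58, 9.45 and 9.51 in OE. The KD libraries stood apart at the low end, with a mean of 7.0 ± 0.0507 (SD, n = 3) against 9.57 ± 0.00914 in PAR, a difference of -2.57 on the log2 scale or 5.93-fold on the shrunken scale. This value chose the gene, and no test is given for it. The OE and PAR libraries overlapped: OE minus PAR, which did not choose the gene, was -0.06 (95% interval -0.13 to 0.02, limma adjusted p = 0.263).

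The next lowered members included other genes of chromosome 19. LINC01224 had rlog values of 8.01, 7.97 and 8.09 in PAR, 7.0, 7.10 and 7.10 in KD and 8.06, 8.09 and 8.10 in OE. The KD libraries lay below all others, with a difference of -0.95 (SE 0.0415, limma adjusted p = 3.28e-19). LINC00662, which has been described in several carcinomas, was at 10.07, 10.15 and 10.11 in PAR, 9.43, 9.37 and 9.41 in KD and 10.08, 10.11 and 10.12 in OE. Its KD difference was -0.70 (SE 0.0279, limma adjusted p = 2.68e-20), and its OE values lay within the PAR range. The fourth member on the chromosome, LINC02987, overlaps the start of LINC00662 on the opposite strand and differed by -0.27, so the 3 members of chromosome 19 other than LINC00665 were called lower in KD, and none of the 4 was called in OE. Of the 700 genes of that chromosome with a mean of at least 7, 39.7% were called lower in KD, and their median KD difference was -0.01.

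Other lowered members lay on chromosomes 11, 12, 13 and 21. LINC03082 fell by 0.76, LINC01667 by 0.74, LINC01619 by 0.65, LINC02732 by 0.63 and LINC00452 by 0.60. The rule that named these genes required their 3 KD libraries to lie below all 3 PAR libraries. LINC02732 was the most spread of these within KD, at 7.04, 7.14 and 7.29. LINC01619 shares 10.2% of its exonic bases with BTG1, an antiproliferative factor on the same strand that was itself lower by 0.32 (limma adjusted p = 6.26e-17), and reads of the shared exon cannot be told apart.

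The raised members reached smaller differences than LINC00665 but were more numerous. LINC01482 on chromosome 17 was at 6.41, 6.44 and 6.37 in PAR, 8.06 in each KD library and 6.60, 6.63 and 6.50 in OE. The KD difference was 1.65, or 3.14-fold on the shrunken scale; it helped the gene pass the threshold, and no test is given for it. LINC02780 on chromosome 1 was at 8.85, 8.77 and 8.79 in PAR, 10.17, 10.21 and 10.20 in KD and 8.71, 8.70 and 8.75 in OE. The KD libraries again stood apart from both other groups, by 1.39 from PAR (SE 0.0307, limma adjusted p = 4.97e-27).

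LINC00460, a lincRNA described in carcinomas with ties to epithelial to mesenchymal change, was at 9.82, 9.80 and 9.81 in PAR, 10.78, 10.77 and 10.84 in KD and 9.80, 9.74 and 9.84 in OE. It rose by 0.99 in KD (limma adjusted p = 2.99e-24), while the OE libraries spanned the PAR values. The remaining raised members named by size were LINC02328 at 1.19, LINC02343 at 1.12, LINC00648 at 0.99, LINC00326 at 0.97 and LINC00308 at 0.82. The rule that named these genes required their 3 KD libraries to lie above all 3 PAR libraries. LINC02328 and LINC00326 also passed the threshold through their KD libraries, so their differences are descriptions.

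**Figure D3:**
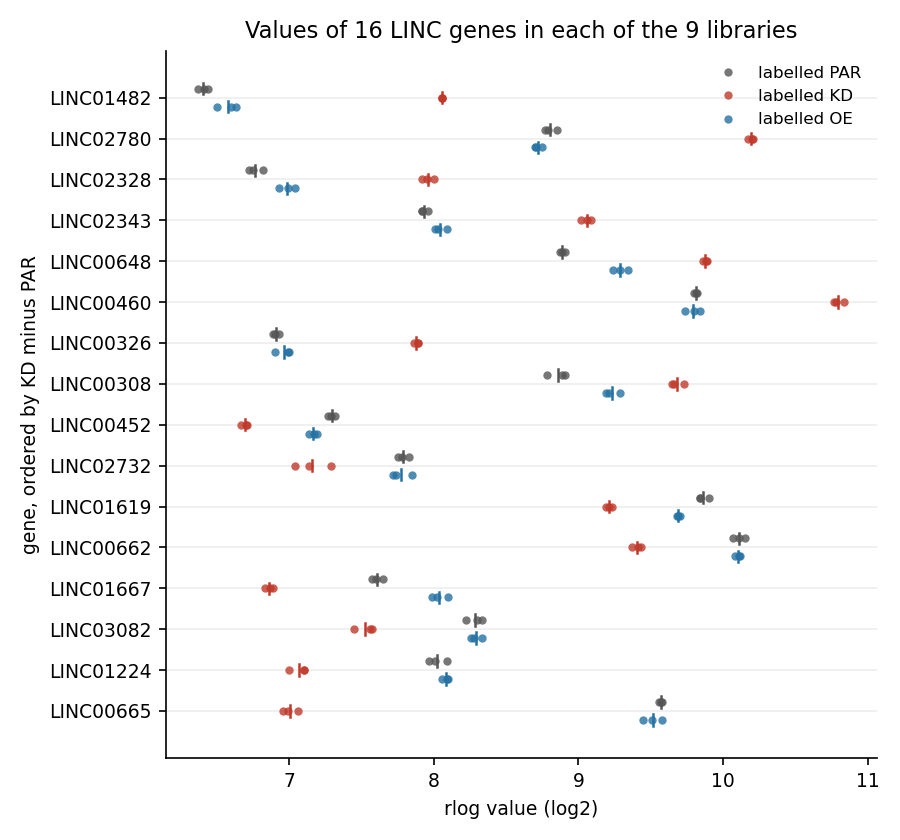
Rlog value (log2, horizontal axis) of the 8 LINC genes most raised and the 8 most lowered in KD minus PAR, in each of the 9 libraries (points) with group means (short vertical lines); genes are ordered by KD minus PAR. The KD points of LINC00665 lie near 7 with PAR and OE near 9.5, and in LINC01482 and LINC02780 the KD points lie right of both other groups.

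The promoters of the 3 most lowered and the 3 most raised members that have an entry in the RefSeq promoter table (build GRCh38.p14) are shown because their genes move furthest. Each line runs 5′ to 3′ over 300 bases, from 250 before to 50 after the start that the table gives, with CG dinucleotides in capitals. In the GENCODE models other isoforms of LINC03082, LINC01482 and LINC00460 start up to 71.8, 36.4 and 2.09 kb further upstream, and those starts are not shown.
LINC00665 (chr19:36331704-36332003, minus strand): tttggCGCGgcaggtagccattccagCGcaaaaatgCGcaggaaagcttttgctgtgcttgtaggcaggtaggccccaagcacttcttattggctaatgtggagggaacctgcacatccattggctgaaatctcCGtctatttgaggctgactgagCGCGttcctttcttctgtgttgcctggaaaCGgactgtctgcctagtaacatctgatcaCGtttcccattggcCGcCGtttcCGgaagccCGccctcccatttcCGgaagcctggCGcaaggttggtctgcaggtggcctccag
LINC01224 (chr19:23416025-23416324, minus strand): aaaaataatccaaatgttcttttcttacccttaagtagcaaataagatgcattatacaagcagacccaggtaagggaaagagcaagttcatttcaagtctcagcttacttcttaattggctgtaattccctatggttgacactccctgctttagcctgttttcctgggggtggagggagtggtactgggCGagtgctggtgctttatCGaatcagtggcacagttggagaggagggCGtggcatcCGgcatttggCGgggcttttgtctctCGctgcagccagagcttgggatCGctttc
LINC03082 (chr13:110057261-110057560, minus strand): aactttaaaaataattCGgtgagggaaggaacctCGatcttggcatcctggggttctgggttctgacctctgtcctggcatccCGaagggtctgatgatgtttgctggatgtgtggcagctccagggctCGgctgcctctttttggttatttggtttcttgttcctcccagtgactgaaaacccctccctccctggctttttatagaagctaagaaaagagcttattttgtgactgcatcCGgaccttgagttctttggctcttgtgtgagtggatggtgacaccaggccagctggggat
LINC00460 (chr13:106376314-106376613, plus strand): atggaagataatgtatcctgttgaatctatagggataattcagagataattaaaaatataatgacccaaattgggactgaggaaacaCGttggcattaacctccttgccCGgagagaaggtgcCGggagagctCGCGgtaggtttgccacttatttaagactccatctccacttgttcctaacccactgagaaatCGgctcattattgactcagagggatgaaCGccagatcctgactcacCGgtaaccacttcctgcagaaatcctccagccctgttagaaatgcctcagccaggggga
LINC02343 (chr13:34347793-34348092, plus strand): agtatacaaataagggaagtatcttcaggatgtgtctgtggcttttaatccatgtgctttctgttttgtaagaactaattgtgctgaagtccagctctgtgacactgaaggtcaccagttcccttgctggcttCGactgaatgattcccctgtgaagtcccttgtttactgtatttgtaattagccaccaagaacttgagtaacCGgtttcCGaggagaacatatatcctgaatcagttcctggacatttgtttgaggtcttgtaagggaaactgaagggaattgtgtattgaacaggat
LINC01482 (chr17:68627904-68628203, plus strand): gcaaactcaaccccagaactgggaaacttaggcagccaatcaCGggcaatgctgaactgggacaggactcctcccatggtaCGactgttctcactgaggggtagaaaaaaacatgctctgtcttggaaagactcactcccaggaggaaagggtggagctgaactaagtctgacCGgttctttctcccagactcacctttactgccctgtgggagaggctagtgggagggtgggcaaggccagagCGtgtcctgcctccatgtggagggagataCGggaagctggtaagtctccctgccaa

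LINC00665 holds 15 CG dinucleotides in this window, CCAAT and GGGCGG, and lacks TATAAA. LINC01224 has 7, LINC03082 has 5, LINC00460 has 8, LINC02343 has 3 and LINC01482 has 5. CCAAT was found in LINC01224, LINC00460 and LINC01482, and TATAAA in LINC03082. No motif searched was held by all 3 lowered or all 3 raised members.

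Over the members, 87 had a promoter entry and 62 had none. On both strands of the 300 bases, TATAAA was found in 21.8% of the 87 against 12.0% of the promoters of all 27305 genes in the table, CCAAT in 41.4% against 35.7%, and GGGCGG in 34.5% against 44.5%. CACGTG was found in 3.45% against 7.40%, and TGACGTCA in 3.45% against 1.97%, which is 3 members each. CG dinucleotides had a median of 7 in the members and 13 in all promoters. Among members with an entry, the median was 6.5 in the 48 called higher in KD, 5 in the 21 called lower and 14 in the 18 not called. TATAAA was in 12 of the 48, 2 of the 21 and 5 of the 18. These are matches of letters, and no test was made.

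The genes around LINC00665 were compared because its change was the largest of the members. Within 500 kb on either side, 34 genes had a value and 17 a mean of at least 7. The 7 of these beyond the start of LINC00665 were all zinc finger genes, ZFP14, ZFP82, ZNF566, ZNF260, ZNF529, ZNF461 and ZNF850, and all were called lower in KD, by 0.24, 0.53, 0.22, 0.25, 0.32, 0.24 and 0.46 in that order. Zinc finger genes of this kind, many with a KRAB repressor domain, stand in clusters on chromosome 19. On the other side, ZNF565 differed by 0.08 and was not called (limma adjusted p = 0.138), and of the 9 remaining genes 5 were called higher and 1, WDR62, lower, between -0.07 and 0.17. The nearest coding gene, ZFP14, lies 2.68 kb from LINC00665 on the same strand. In OE, ZFP14 and ZFP82 were higher by 0.15 and 0.19, and the other 5 of the 7 were not called.

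**Figure D4:**
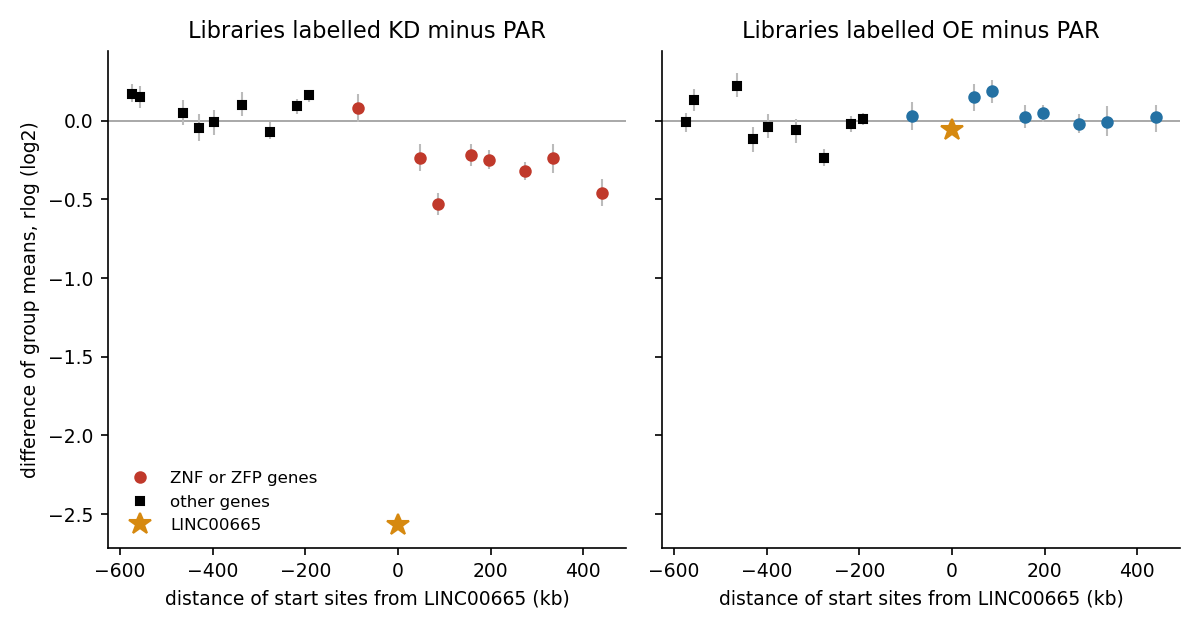
Difference of group means (log2, with 95% intervals) of the 17 genes with a mean of at least 7 around LINC00665, by the distance of their start sites from its start in kb, for KD minus PAR (left) and OE minus PAR (right); circles are ZNF or ZFP genes, squares other genes, and the star is LINC00665. In the left panel the 7 genes at positive distances lie between -0.53 and -0.22 and LINC00665 at -2.57.

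LINC01224 lies in another zinc finger cluster of the chromosome. Within 500 kb, 6 genes had a mean of at least 7, 5 of them ZNF genes, and all 6 were called lower in KD, from ZNF730 at -1.19 to ZNF91 at -0.19. ZNF and ZFP genes were singled out after these values were seen. Over the whole chromosome, 138 of them had a mean of at least 7. Of these, 81 were called lower and 23 higher in KD, with a median of -0.17. The 138 include the genes that prompted the choice, 8 near LINC00665 and 5 near LINC01224. Of those, 7 and 5 are among the 81, so the counts are a description. Of the 562 other genes, 197 were called lower and 215 higher, with a median of 0.01. In OE, 19 of the 138 were called lower and 30 higher, with a median of 0.01; of the 562 other genes, 232 were called lower and 113 higher, with a median of -0.04.

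The second comparison asks which lincRNAs differed between the libraries labelled OE and the same 3 PAR libraries. By limma, 50 members (33.6%) were called higher, 28 (18.8%) lower, and 71 were not called. Over all genes 16.9% were called higher and 18.0% lower, and among genes with a mean of at least 7, 25.3% and 29.9%. The median difference of the members was 0.042, against 0.0004 over all genes. The 3 OE libraries lay beyond all 3 PAR libraries in 81 members (54.4%), against 62.2% of the genes with a mean of at least 7. No member had a called difference over 0.5 in limma's test, against 1.40% of those genes; with no size required and an unadjusted p under 0.05, 58 members were higher and 33 lower, against 28.5% and 33.9% of those genes.

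LINC01198 on chromosome 13 had the largest OE difference. It was at 7.87, 7.81 and 7.93 in PAR, 8.14, 8.01 and 8.12 in KD and 8.28, 8.29 and 8.38 in OE. The OE libraries were the highest, by 0.45 over PAR (limma adjusted p = 2.57e-10), with KD at 0.22 between them. LINC01667 followed at 0.43, LINC00648 at 0.40, LINC01237 at 0.39, LINC00308 and LINC01322 at 0.37, LINC02251 at 0.34 and LINC01687 at 0.32. Of these, LINC00648, LINC00308, LINC01322, LINC01237, LINC02251 and LINC01687 were also called higher in KD, by 0.99, 0.82, 0.49, 0.82, 0.44 and 0.62; the comparisons share their PAR libraries. LINC01687 and LINC00308 lie on chromosome 21, and the nearest coding gene of both, 465 and 555 kb away, is NCAM2, a neural adhesion molecule that was itself higher by 0.80 in KD and 0.21 in OE.

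On the lower side LINC01060 led. Its values were 11.35, 11.37 and 11.35 in PAR, 11.61 in each KD library and 10.98, 10.98 and 10.94 in OE. OE was lower than PAR by 0.39 (limma adjusted p = 1.71e-16) and KD higher by 0.25 (limma adjusted p = 1.48e-12), with no overlap among the 3 groups. LINC03061 was at -0.35, LINC02966 at -0.34, LINC02241 at -0.33, LINC01363 at -0.30, LINC02584 at -0.29, LINC02953 at -0.28 and LINC02693 at -0.24. In KD the values of these 7 were -0.43, 0.44, -0.36, 0.31, -0.48, -0.12 and -0.38.

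Some members were called in opposite directions against the shared PAR libraries, and those named here are the 6 in which the smaller of the 2 differences was largest, LINC01060, above, among them. LINC01667, typed as a transcribed pseudogene with 1 exon, was at 7.65, 7.60 and 7.57 in PAR, 6.83, 6.87 and 6.89 in KD and 8.02, 7.99 and 8.10 in OE. The 3 groups did not overlap, and OE minus KD was 1.17. LINC02966 went the other way, at 0.44 in KD and -0.34 in OE, and so did LINC01363 at 0.31 and -0.30 and LINC02018 at 0.17 and -0.17. LINC01546 was at -0.23 in KD and 0.17 in OE.

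OE and KD were also compared with each other, without the PAR libraries in the difference. Of the members, 38 (25.5%) were called higher in OE and 71 (47.7%) lower, against 32.9% and 34.6% of the genes with a mean of at least 7. These counts hold LINC00665 and the 8 members that passed through their KD libraries; of the other 140, 37 (26.4%) were called higher and 66 (47.1%) lower. LINC00665 differed by 2.51 and LINC01482 by -1.49, which are descriptions for the reasons above. The largest tested differences were -1.47 in LINC02780, 1.17 in LINC01667, and 1.01 and -1.01 in LINC01224 and LINC02343.

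At the other end, some members hardly varied. LINC01036 ran from 10.52 to 10.61 over the 9 libraries, LINC02335 from 8.49 to 8.59 and LINC00383 from 8.47 to 8.57. LINC02335 was not called, at -0.06 in KD and -0.07 in OE. It was called lower in KD with block medians removed, at -0.08, and after quantile normalization, at -0.09. With no variance trend it was called lower in both, at -0.06 and -0.07. The range over the 9 libraries had a median of 0.367 in the members; it was below 0.5 in 102 and above 1 in 10. The median SD within a group was 0.0421 in PAR, 0.0325 in KD and 0.0409 in OE. LINC02335 and LINC00383 lie on chromosome 13, as do the raised LINC00460 and LINC02343 and the lowered LINC03082 and LINC00452.

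Of 18 LINC genes with a described role that were listed, 14 had a value and 11 were members. LINC00467, described as repressed by MYCN in neuroblastoma cells, was at 8.47, 8.47 and 8.50 in PAR, 8.60, 8.66 and 8.62 in KD and 8.67, 8.64 and 8.65 in OE. Both derivative groups lay above PAR, by 0.15 (limma adjusted p = 4.28e-04) and 0.17 (limma adjusted p = 1.18e-04). LINC00461, a brain transcript that hosts a microRNA gene near MEF2C, was higher in OE by 0.17 (limma adjusted p = 1.69e-04), and its KD difference of 0.07 was not called, but was 0.10 and called without KD replicate 3.

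LINC00511 was lower in both, by 0.41 in KD and 0.10 in OE. LINC00342 was at -0.17 in KD and 0.16 in OE, and LINC00963, described in prostate cancer, at -0.15 and 0.16, all called. LINC00963 lies on chromosome 9, where the 458 genes with a mean of at least 7 had a median KD difference of -0.27; with the median of its 20-Mb block removed, its KD difference turned to 0.08 (limma adjusted p = 0.0318). LINC00839, LINC00888 and LINC00899 were not called in either comparison, with differences between -0.03 and 0.07; LINC00888 was called higher in KD, at 0.10, without KD replicate 2. LINC00174 was not called in OE, at 0.02, and its KD difference of 0.06 is a description.

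Nearest protein-coding genes were set beside the members. The median gap was 43.0 kb; 10 members overlapped their neighbour, 43 lay within 10 kb and 54 over 100 kb away. In KD, member and neighbour were both called in 80 pairs, and in the same direction in 63 (78.8%); without LINC00665 and the 8 members that passed through their KD libraries it was 58 of 73 (79.5%). For comparison, among the protein-coding genes with a mean of at least 7 and their own nearest coding gene, 63.7% of the 4992 pairs with both called went in the same direction. In OE it was 28 of 41 (68.3%) for members and 63.7% of 2677 for coding genes. Some members share a neighbour, and no test was made.

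Among the pairs that moved together, LINC00648 was at 0.99 in KD and MDGA2, a synaptic adhesion regulator 89.3 kb away, at 0.96 (limma adjusted p = 7.12e-20). LINC01482 overlaps the span of FAM20A, a secretory pathway pseudokinase on the opposite strand, which rose by 1.07 in KD (limma adjusted p = 7.03e-19); none of its exonic bases were shared. LINC02328 and FLRT2, a cell adhesion protein, were at 1.19 and 0.58, LINC00326 and EYA4, a transcriptional coactivator, at 0.97 and 0.54, and LINC02343 and NBEA (neurobeachin) at 1.12 and 0.39. LINC00452 and GAS6, a ligand of the TAM receptors, were both lower, at -0.60 and -0.46.

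Other pairs moved apart. LINC00460 was at 0.99 in KD while EFNB2, an ephrin ligand 105 kb away, was at -0.52 (limma adjusted p = 1.47e-16). LINC02241 was at -0.36 and CDH18, a cadherin, at 1.71 (limma adjusted p = 3.78e-24). LINC03082 was at -0.76 and COL4A1, a basement membrane collagen, at 0.29. LINC02780 was at 1.39 and C1orf174 at -0.12.

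In 9 pairs the genes stood head to head, on opposite strands with starts at most 2 kb apart. Of these, 5 were both called in KD and 4 of the 5 in the same direction. LINC02587 and MEOX2, a homeobox gene, were at 0.27 and 0.53, and LINC00205 and POFUT2, a fucosyltransferase, at 0.21 and 0.16. LINC00938 and ARID2, a chromatin remodelling subunit, were at 0.18 and 0.07, and LINC01301 and RAB2A, a GTPase of early secretion, at -0.47 and -0.08. The fifth pair, LINC01473 and ZC3H15, was at 0.29 and -0.10.

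**Figure D5:**
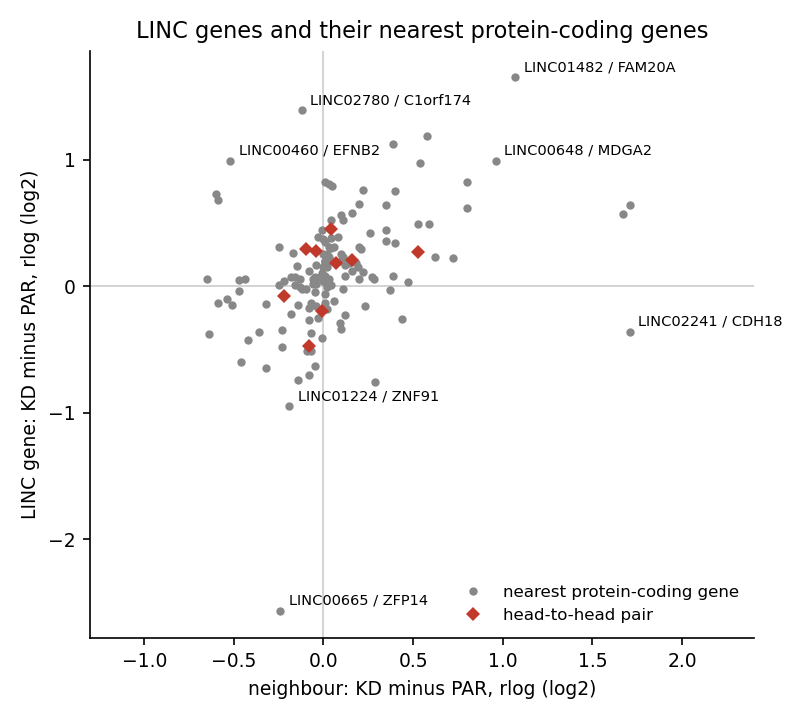
KD minus PAR difference (log2) of each of the 149 LINC genes (vertical axis) against that of its nearest protein-coding gene (horizontal axis); diamonds are the 9 head-to-head pairs. LINC01482 with FAM20A and LINC00648 with MDGA2 lie at the upper right, LINC00665 with ZFP14 at -2.57 and -0.24, and LINC02241 with CDH18 at -0.36 and 1.71.

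Long noncoding RNAs with names of their own were listed for comparison, and 48 of 67 had a value. In KD, 23 were called higher and 15 lower, with a median of 0.046; in OE, 12 were called higher and 18 lower, with a median of -0.007. Of these 48, 34 had a mean of at least 7; the shares of all genes at that level were 36.5% and 38.6% in KD and 25.3% and 29.9% in OE. MIR99AHG, the host of a microRNA cluster, had the largest KD rise, from a PAR mean of 7.50 to 8.59 with OE at 7.27. MIR22HG had the largest fall in both comparisons, by 0.77 in KD and 0.43 in OE, and CASC15, a neuroblastoma susceptibility transcript, had the largest OE rise, at 0.37. The nuclear transcripts MALAT1 and NEAT1 were lower in KD by 0.14 and 0.31, and GAS5, which hosts small nucleolar RNAs, was higher by 0.19.

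LincRNAs are turned over by the nuclear exosome with its cofactors and end by the cleavage and polyadenylation machinery. Of 47 entries listed for these functions 43 had a value. In KD, 11 were called higher and 21 lower with a median of -0.041, and in OE 3 higher and 16 lower with a median of -0.023; 42 of the 43 had a mean of at least 7, where the shares of all genes were 36.5% and 38.6% in KD and 25.3% and 29.9% in OE. EXOSC2, an exosome cap subunit, fell the most in KD, by 0.48 (limma adjusted p = 8.49e-20). The cap-binding pair moved apart in KD, with NCBP1 at -0.36 and NCBP2 at 0.36. EXOSC2 and NCBP1 lie on chromosome 9, where the median KD difference was -0.27 as given above. With the medians of their 20-Mb blocks removed they were at -0.25 and -0.18, with NCBP2 at 0.27. CSTF2, at -0.29 in KD, was then the lowest of the list, at -0.31. With block medians removed, 12 of the list were called higher and 17 lower in KD; EXOSC7, at -0.26, CPSF1, at -0.16, NUDT21 and CPSF6 were no longer called, at -0.07, -0.01, -0.03 and -0.02, and XRN2, an exonuclease not called at -0.03, was called higher at 0.09. In OE, CSTF2, a cleavage factor, was at -0.18 and INTS9, an Integrator subunit, at 0.23. The part of these genes in the lincRNA differences was not tested.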

How the data were processed

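The deposited values for 9 libraries were regularized log2 (rlog) values per Ensembl gene. Per the labels and the study's methods, the authors trimmed reads with cutadapt (quality under 20 or length under 36 bases removed), aligned them to GRCh38 with HISAT2, counted with featureCounts of Subread, removed genes with a total count under 10, and ran DESeq2; versions and the annotation are not given in the sources used here. A read coverage is stated but not by library, so the depth of each library is unknown. Symbols were matched for 22195 of 22290 genes, with gene models from GENCODE release 44. Differences were tested on the deposited log2 values with limma 3.58.1 in R 4.3.3. The model had 1 mean per group over all 9 libraries and a moderated variance with a trend on level. The p-values were two-sided, with Benjamini-Hochberg adjustment over all genes. The code was also run on simulated normal values, drawn independently for each library. That run cannot check the calls where triplicates are technical or libraries are related. Members and lists were chosen with earlier results of these data known. Genes were named by rule: TRAP1 and LINC00665; members highest in level, nearest the threshold, most and least changed (up to 8 per direction and comparison, groups not overlapping), called in opposite directions, or with a described role; the extremes of each list; and nearest coding genes. MALAT1, NEAT1, GAS5, NCBP1, NCBP2, EXOSC7, CPSF1, NUDT21, CPSF6, XRN2, PRRX1, FN1, FOSL1, KRT14, KRT8, DSP, CLDN4, LINC02987, LINC01145, LINC01881, LINC03006, the head-to-head pairs and the zinc finger genes were named after their values were seen. Alternatives covered variance, libraries, filter, scaling, replicate block, 20-Mb block medians, thresholds and membership.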

Additional observations from a re-analysis of the deposited data

How the results depend on the processing

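Under 17 alternatives to the test, counts of calls over all genes and over the members stayed within 1.5 times of the values given unless a size was required. Without that requirement, 2568 of 2598 single-gene differences kept their direction and side of the threshold. LINC00963 turned from -0.15 to 0.078 in KD minus PAR with the 20-Mb block median removed. With a difference over 0.5 required, calls over all genes were 1110 in KD minus PAR, 200 in OE minus PAR and 793 in OE minus KD. Members called higher and lower were then 24 and 10, 0 and 0, and 7 and 19. The member counts in KD minus PAR and OE minus KD hold LINC00665 and members that passed through their KD libraries, such as LINC01482, so they are descriptions. TRAP1, at 0.139 in KD, was no longer called with that size required. At a mean of at least 8, which leaves 98 members, 50 were higher and 24 lower in KD, against 36.4% and 39.4% of the 9956 genes at that level, and the OE median was 0.026; at a mean of at least 6, with 214 members, the KD median was 0.117. With suffixed and older LINC symbols added, 225 members gave 109 higher and 65 lower in KD, 73 and 50 in OE and 63 and 100 in OE minus KD, against the shares at a mean of at least 7 given above, and a KD median of 0.072. The KD median was 0.097 with block medians removed and 0.072 after quantile normalization, and the OE median then 0.029. Without LINC00665 and the 8 members that passed through their KD libraries, an alternative chosen after seeing the data, 69 were higher and 38 lower in KD with a median of 0.075, and 47 and 28 in OE with a median of 0.032. Leaving out each library gave KD medians from 0.084 to 0.112. The cause was not tested.

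Same-numbered correlations ran from -0.0458 to 0.1, and not every library correlated best with its own number. With a PAR library they reached at most 0.00394, so the numbers did not pair PAR with the other groups. Between KD and OE they were 0.0861, 0.0156 and 0.1. Among the OE libraries, each KD library correlated best with its own number, so some pairing of KD with OE remains possible. With the replicate block, 12015, 7854 and 10623 genes were called in KD minus PAR, OE minus PAR and OE minus KD, against 11980, 7764 and 10552, and 76 and 39 members in KD and 53 and 28 in OE. LINC02780, at -0.08 in OE, lost its call without PAR replicate 1, without OE replicate 1, without OE replicate 2, with the 20-Mb block median removed and with only the 2 groups compared, with values of -0.06 to -0.08. The depth of each library is unknown, and low levels are the most shrunken.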
